A study of Mus musculus with 12 samples.

Results

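The serpins are a superfamily of proteins that share one fold, and most of them trap and inactivate serine or cysteine proteases. The Serpin genes were taken as all rows of the count table whose Ensembl identifier carried a GENCODE vM1 symbol beginning with Serpin and whose counts summed above 0, which gave 35 genes of 51609 gene rows, of which 28151 held any count. The annotation holds 67 such symbols, of which 53 had a row in the table. Of these 53, 18 were at 0 in every library. The other 14 symbols are not analysed here, among them Serpina1a to Serpina1e, Serpina3k, Serpina3m, Serpina3n and Serpinc1. Rankings and counts below therefore hold only for the genes analysed. RNA was measured by sequencing of whole mouse liver on a C57BL/6 background, with 12 libraries in 4 groups of 3. The groups were wild-type (WT) mice left untreated on plain water, WT mice given 2% dextran sulfate sodium (DSS, which injures the colon lining and causes colitis) in the drinking water for 6 days, and mice labelled as Rela and Stat3 knockout under the same pair of conditions. Per the study's methods the knockout joins floxed Rela and Stat3 to a Cre recombinase driven by the albumin promoter, so it acts in hepatocytes and the other cells of the liver keep both genes. The WT animals were littermates that carried the floxed alleles without Cre, and mice of both sexes aged 5 to 7 weeks were used.

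Serpins of the plasma come mainly from hepatocytes. They hold clotting, fibrinolysis and complement in check, and some members have lost inhibition and carry hormones instead. Clade B serpins stay inside cells, where several guard against leaked granule proteases, and Serpinh1 (Hsp47) is a chaperone of collagen in the endoplasmic reticulum. The mouse antichymotrypsin gene Serpina3 has expanded into a cluster of near copies, and Rela (the p65 subunit of NF-κB) and Stat3 are transcription factors that drive acute-phase genes in hepatocytes.

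By role the 35 genes comprised 10 antichymotrypsin paralogs, 6 genes of clotting, fibrinolysis and complement, 2 hormone carriers, 4 other clade A genes, 11 intracellular clade B genes, the chaperone Serpinh1 and the neuroserpin gene Serpini1. In the genome build mm9, 15 of them lay in one stretch of chromosome 12 from position 104854885 to 105601744, and 6 lay on chromosome 13 and 6 on chromosome 1. Of the 35, 29 passed the filter on low counts and were tested among 17652 genes. The 6 that did not were Serpina3a, Serpina3d-ps, Serpina3e-ps, Serpinb1c, Serpinb5 and Serpine3, none of which exceeded a level of 1.06 CPM (counts scaled to library size) in any library.

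The antichymotrypsin paralogs Serpina3f, Serpina3g and Serpina3i lie close together on chromosome 12. Their upstream sequences are shown because these were the windows of antichymotrypsin paralogs that held both a STAT and a κB motif. The windows of Serpina3a, Serpina3b and Serpina3c held neither. The windows are the 250 bases before the transcription start in RefSeq for the build GRCm38.p6, on the plus strand at chr12:104214294-104214543, chr12:104235897-104236146 and chr12:104262872-104263121. Capitals mark matches to the STAT motif TTCNNNGAA and to the κB motif, written as GGG and CC with 5 bases of any kind between them, both searched on both strands.
Serpina3f: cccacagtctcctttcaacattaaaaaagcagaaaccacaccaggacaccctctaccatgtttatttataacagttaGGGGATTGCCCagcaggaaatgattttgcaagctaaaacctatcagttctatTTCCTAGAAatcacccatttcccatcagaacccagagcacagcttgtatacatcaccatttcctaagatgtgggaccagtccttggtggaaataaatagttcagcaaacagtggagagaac
Serpina3g: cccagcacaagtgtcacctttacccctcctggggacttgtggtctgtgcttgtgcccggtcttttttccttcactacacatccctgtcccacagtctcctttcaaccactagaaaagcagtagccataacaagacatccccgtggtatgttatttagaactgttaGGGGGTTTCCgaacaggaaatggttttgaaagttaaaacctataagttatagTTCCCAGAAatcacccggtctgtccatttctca
Serpina3i: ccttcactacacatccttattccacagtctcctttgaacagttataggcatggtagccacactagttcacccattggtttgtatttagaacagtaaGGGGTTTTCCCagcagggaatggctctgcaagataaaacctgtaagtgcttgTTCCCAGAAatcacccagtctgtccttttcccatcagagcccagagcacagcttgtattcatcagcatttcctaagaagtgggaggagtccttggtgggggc
In each of the 3 windows the first κB match began 52 bases before the STAT match. A second RefSeq window of Serpina3f, at chr12:104214383-104214632, held the same STAT letters and no κB match. Where they aligned, the windows of Serpina3f and Serpina3g were identical at 82.9% of 152 bases and those of Serpina3g and Serpina3i at 77.9% of 181 bases. The STAT letters were found in 7.02% of 32851 RefSeq promoter windows of this length and the κB letters in 45.8%. Of the 29 windows of the 24 Serpin genes that had an entry, 6 held the STAT letters, of which 2 overlap at Serpina3f and the others belonged to Serpina3g, Serpina3i, Serpinb2 and Serpinb6a. The κB letters were in 10 of the 29. A heat-shock motif and an interferon-response motif were also searched. They were found in 5 and 1 of the 29 windows, none of them printed here, and in 12.8% and 2.98% of all windows.

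The upstream windows of Serpinh1 (chr7:99353240-99353489, minus strand) and Serpinb8 (chr1:107589756-107590005, plus strand) follow because both passed the edgeR test of a difference between genotypes in DSS response. The sex of the mice cannot be told apart from that difference, as given below.
Serpinh1: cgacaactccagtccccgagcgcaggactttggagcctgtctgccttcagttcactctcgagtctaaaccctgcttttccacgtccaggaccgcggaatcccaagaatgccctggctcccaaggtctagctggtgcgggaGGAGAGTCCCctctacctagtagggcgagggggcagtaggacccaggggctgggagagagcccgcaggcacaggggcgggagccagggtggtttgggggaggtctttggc
Serpinb8: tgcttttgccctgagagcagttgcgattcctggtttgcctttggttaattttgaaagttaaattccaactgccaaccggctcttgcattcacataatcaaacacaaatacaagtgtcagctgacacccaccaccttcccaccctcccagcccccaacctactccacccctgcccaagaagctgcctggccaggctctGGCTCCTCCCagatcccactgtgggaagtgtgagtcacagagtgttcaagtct
Each held 1 κB match, on the strand opposite to the one printed, and no STAT match. A match describes letters and is not evidence of binding.

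Library totals ranged from 65879529 to 82850098 estimated counts, and the Serpin genes took 0.288% to 0.510% of them. The WT DSS libraries gave the 3 highest shares, 0.383%, 0.510% and 0.469%. The targeted genes were examined first. Rela was at 41.2 to 54.5 CPM in untreated WT and 42.8 to 51.4 CPM in untreated knockout liver, so its transcript level did not separate the genotypes. Stat3 was at 45.7 to 137.6 CPM in untreated WT and 45.9 to 49.7 CPM in untreated knockout liver, and at 63.2 to 329.5 CPM against 43.0 to 74.8 CPM after DSS. Neither passed the test between genotypes, with edgeR adjusted p = 0.961 and 0.827 for Rela and 0.542 and 0.175 for Stat3 without and with DSS, so gene-level counts do not check the knockout label, and whether they include the deleted exons is not given in the sources used here. Xist was at 902.6 to 1283 CPM in the 3 knockout DSS libraries and at 0.191 to 29.0 CPM in the others but for WT untreated replicate 3, which had 1143 CPM together with a Y-linked sum of 30.1 CPM. The Y-linked sum was at most 0.120 CPM in knockout DSS and 175.1 to 241.4 CPM in the other 8 libraries. Sex therefore cannot be told apart from DSS within the knockout or from genotype under DSS. WT DSS replicate 2 also stood apart, with a summed level of the 13 acute-phase genes that had a row of 207123 CPM against 15673 to 63004 CPM elsewhere.

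The levels spanned a wide range (the heat map shows each gene in each liver). Among the genes analysed, the highest mean levels per kilobase of exon over the 12 libraries belonged to Serping1 (C1 inhibitor) at 401 CPM per kb, Serpinf2 (alpha-2-antiplasmin) at 400.5, Serpind1 (heparin cofactor II) at 309 and Serpina10 (the protein Z-dependent protease inhibitor) at 241. Serpina6, the carrier of corticosteroids, followed at 117 CPM per kb, then the pseudogene Serpina4-ps1 at 77.5 and Serpina7, the carrier of thyroxine, at 49.6 CPM per kb. Serpina3g, the highest antichymotrypsin paralog of those analysed, stood at 12.6 CPM per kb, and no clade B gene analysed exceeded the 2.79 CPM per kb of Serpinb6a.

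**Figure D1:**
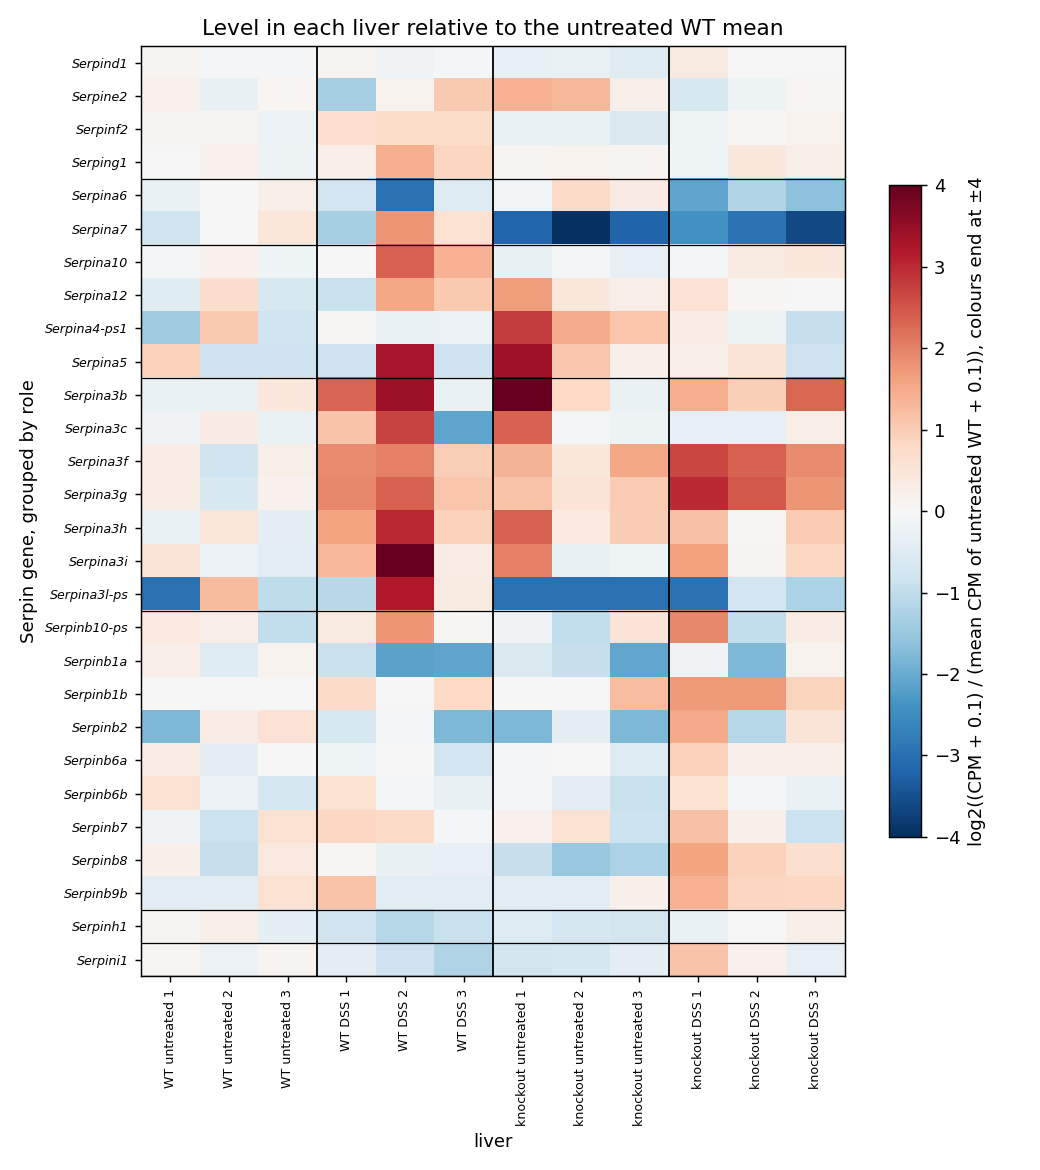
Level of 28 of the 29 tested Serpin genes (rows, grouped by role) in each of the 12 livers (columns), as the log2 ratio of CPM + 0.1 to the untreated WT mean + 0.1. The Serpina7 row is blue in all 6 knockout livers, and WT DSS replicate 2 and knockout untreated replicate 1 are the darkest red columns among the clade A genes.

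The first question was how DSS colitis changed the Serpin genes of WT liver. One of 29 tested genes passed the test, Serpinh1, which fell. The background was 0.685% of 17652 genes called, and an unadjusted p under 0.05 was reached by 11 Serpin genes. DESeq2 called 9 of the 29, where 4.92% of all genes were called. Over the 29 genes the log2 fold changes had a median of 0.93, against 0.02 over all genes tested, and 20 of the 29 were above 0, as were 9212 of all 17652. Without WT DSS replicate 2 the median was 0.37 and 18 of the 29 were above 0. It was 0.45 by limma-voom, and 0.25 over the 19 Serpin genes with at least 10 counts in every library. All 7 tested antichymotrypsin paralogs and 4 of 5 genes of clotting, fibrinolysis and complement were above 0, although no member of these groups passed. Groups did not overlap for 9 of the 29 (background 18.7% of genes), 5 on the higher side (background 9.49%) and 4 on the lower side (background 9.21%).

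Serpinh1 measured 23.9, 26.1 and 17.0 CPM in the untreated WT livers and 12.7, 10.1 and 11.97 CPM after DSS. Every treated liver was below every untreated one. It fell by 0.94 ± 0.18 (SE) on the log2 scale (edgeR adjusted p = 0.0302; DESeq2 adjusted p = 0.000135). The change was -0.86 with an edgeR adjusted p of 0.0628 without WT DSS replicate 2, and the call was kept in 5 of the 12 fits that left out 1 library. It was lost without WT untreated replicates 1 or 2, WT DSS replicates 2 or 3 or any untreated knockout replicate, with an adjusted p of up to 0.116. The summed level of 7 stellate cell and fibroblast markers was 431 to 563 CPM in untreated and 389 to 474 CPM in treated WT liver. Among them the collagen transcript Col3a1, chosen after its values were seen, was at 67.2 to 100.8 CPM without and 16.0 to 55.2 CPM with DSS, whereas the other 6 overlapped between the groups, Dcn at 134.6 to 189.5 CPM without and 109.3 to 248.6 CPM with DSS. Their part in the result was not tested. In whole tissue, fewer cells of a type and less RNA per cell cannot be told apart.

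Among the antichymotrypsin paralogs analysed, Serpina3g was the highest. It measured 11.6, 6.19 and 10.6 CPM in untreated WT liver and 35.9963, 48.9 and 20.7 CPM after DSS. The treated livers were all higher, by 1.90 ± 0.38 (SE) on the log2 scale, and the edgeR adjusted p of 0.0515 just missed the threshold. By DESeq2 the adjusted p was 2.49e-05, and without WT DSS replicate 2 the log2 fold change was 1.58. Serpina3f showed the same order, from 6.62, 3.03 and 6.37 CPM to 19.9, 21.9 and 10.6 CPM, a log2 fold change of 1.71 ± 0.39 (SE) (edgeR adjusted p = 0.0749). The coding sequences of Serpina3f and Serpina3g were identical at 87.6% of aligned bases and those of Serpina3f and Serpina3i at 91.8%, so counts could be split between these neighbours. Serpina3i stood at 0.26 to 0.61 CPM in untreated WT liver and at 1.13, 9.19 and 0.50 CPM after DSS, with its highest value in WT DSS replicate 2. Of the acute-phase genes listed for comparison, 13 of 13 tested were above 0 (median 1.90 on the log2 scale) and none passed. Their summed level was 24911, 207123 and 63004 CPM in WT DSS replicates 1, 2 and 3 and 17534 to 23056 CPM in untreated WT liver. Replicate 1 was thus near the untreated range for this sum and well above it for Serpina3g. Of the single acute-phase genes, Fga, Fgb, Fgg, Cp, Il1rn and Lcn2 were above the untreated WT range in replicate 1. Crp and Lbp were below that range, and the others were within it.

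Among the plasma inhibitors, Serpinf2 measured 910.0, 898 and 712 CPM in untreated WT liver and 1331, 1399 and 1405 CPM after DSS. The groups were clear of each other and the treated livers agreed closely, with a log2 fold change of 0.71 ± 0.17 (SE) and an edgeR adjusted p of 0.0792. By DESeq2 its adjusted p was 3.45e-05. Serping1 stood at 736, 814 and 627 CPM without and 874, 1964 and 1312 CPM with DSS, a log2 fold change of 0.93 ± 0.26 (SE) (edgeR adjusted p = 0.123) that was 0.59 without WT DSS replicate 2. Serpina10 stood at 251, 294 and 231 CPM without and 264, 1334 and 677 CPM with DSS, and its log2 fold change of 1.55 ± 0.42 (SE) was 0.85 without that liver. Serpind1, the inhibitor of thrombin that is activated by glycosaminoglycans, was level at 663 to 760 CPM without and 639 to 756 CPM with DSS.

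**Figure D2:**
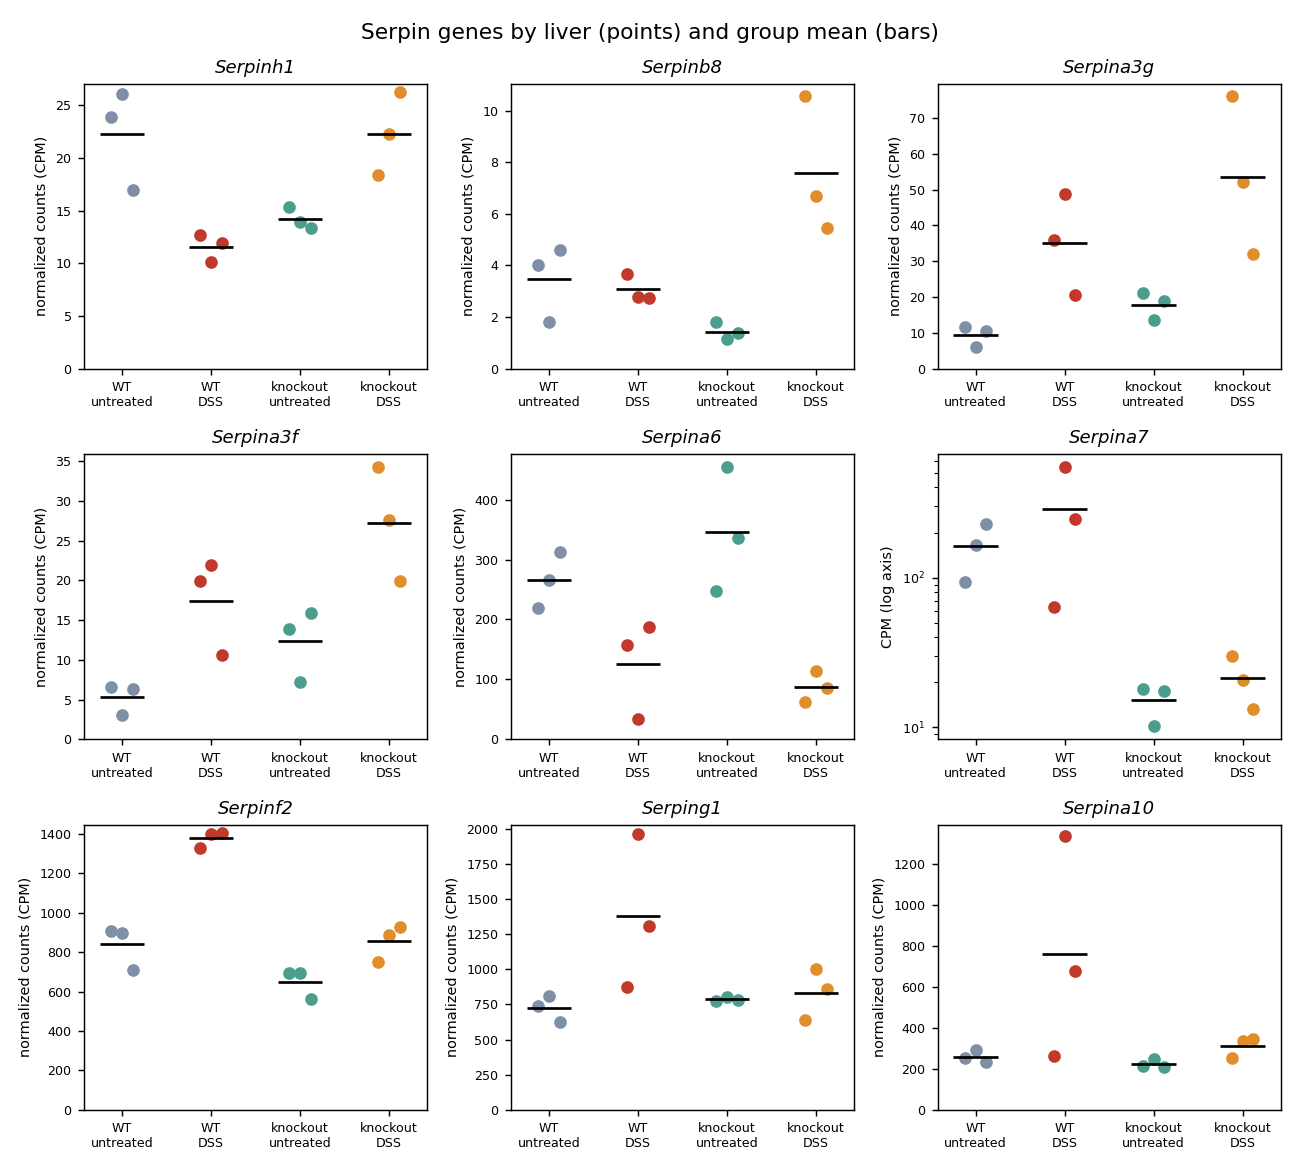
Normalized counts (CPM) of 9 Serpin genes in each liver (points, 3 per group) with the group mean (bars), with a log axis for Serpina7 and axes from 0 for the others. Serpinh1 lies lowest in WT DSS and is as high in knockout DSS as in untreated WT (both means 22.3 CPM), and Serpina7 is at 29.9 CPM or less in every knockout liver.

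The same treatment was then examined in the knockout. Here 4 of 29 Serpin genes passed the test, with Serpinb8, Serpina3g and Serpinh1 higher and Serpina6 lower. The background was 7.02% of genes called, 4.57% higher and 2.46% lower. DESeq2 called 9 of the 29, where 13.5% of all genes were called, and 11 Serpin genes had an unadjusted p under 0.05 by edgeR. Over the 29 genes the log2 fold changes had a median of 0.55, against -0.01 over all genes tested. Groups did not overlap for 14 of the 29 (background 31.8%), 11 on the higher side (background 17.8%) and 3 on the lower side (background 14%). Of the 9 tested clade B genes, Serpinb8 passed. Serpinb6b, Serpinb6a and Serpinb1a had log2 fold changes of 0.56, 0.66 and 0.70 without passing, and the other 5 were near the floor of detection. All 4 calls were lost when sex, coded as Xist above 100 CPM, entered as a covariate, and sex and DSS coincide in the knockout. The log2 fold changes in that fit were 1.21 ± 0.28 (SE) for Serpinh1, 1.74 ± 0.61 (SE) for Serpinb8, 1.33 ± 0.72 (SE) for Serpina3g and -2.35 ± 0.91 (SE) for Serpina6, with edgeR adjusted p from 0.205 to 0.535. Untreated WT was the only group with livers of both codes. The sex term therefore rested on WT untreated replicate 3, which had Xist and Y-linked counts together. Although the directions were unchanged, this fit cannot separate sex from DSS in the knockout.

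Serpinb8, a clade B inhibitor of furin-like proteases, measured 1.79, 1.15 and 1.39 CPM in untreated knockout liver and 10.6, 6.70 and 5.44 CPM after DSS. The groups stood well apart, with the lowest treated liver far above the highest untreated one. It rose by 2.39 ± 0.36 (SE) on the log2 scale (edgeR adjusted p = 0.00364) and kept its call in all 12 fits that left out 1 library, with an adjusted p of at most 0.0271. The Kupffer cell and macrophage markers were also higher in the treated knockout livers. Of 7 tested, 6 rose (Cd5l, Cd68, Clec4f, Marco, Timd4 and Vsig4), and their summed level was 286 to 317 CPM without and 579 to 936 CPM with DSS. The other immune markers were also clear of overlap, with summed levels of 0.34 to 0.81 CPM without and 6.74 to 23.7 CPM with DSS for neutrophils, and 3.81 to 4.08 CPM without and 8.43 to 17.2 CPM with DSS for T, NK and B cells, of which Gzma rose. In WT liver after DSS, 6 of 7 Kupffer cell and macrophage, 6 of 6 neutrophil and 0 of 7 T, NK and B cell markers had a log2 fold change above 0. None of them passed. The Kupffer cell and macrophage sums there overlapped, at 238 to 498 CPM without and 384 to 849 CPM with DSS. The part of the immune markers in the Serpinb8 result was not tested.

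Serpina3g rose from 21.0, 13.7 and 19.0 CPM to 76.1, 52.1 and 32.1 CPM in the knockout. The groups did not overlap and the log2 fold change was 1.58 ± 0.37 (SE) (edgeR adjusted p = 0.0304). The call was kept in 7 of the 12 fits without 1 library and lost without any untreated knockout replicate or knockout DSS replicates 1 or 2 (edgeR adjusted p up to 0.125), and the log2 fold change lay between 1.22 and 1.84 in them. Serpina3f followed from 13.9, 7.19 and 15.9 CPM to 34.3, 27.6 and 20.0 CPM, a log2 fold change of 1.14 ± 0.38 (SE) (edgeR adjusted p = 0.0931). The acute-phase genes were again above 0 at 13 of 13 (median 0.62 on the log2 scale), none of them past the threshold.

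Serpina6 fell in the knockout from 248, 455 and 336 CPM to 62.1, 115 and 84.8 CPM, a decrease by 1.99 ± 0.52 (SE) on the log2 scale (edgeR adjusted p = 0.0455). In WT liver it stood at 219.5, 266 and 312 CPM without and 157, 33.2 and 187 CPM with DSS. The WT log2 fold change was -1.08 ± 0.50 (SE) with an edgeR adjusted p of 0.358. Taking both genotypes, in a comparison added after the values were seen, all 6 treated livers lay below all 6 untreated ones, which held for 1 of 29 Serpin genes and in this direction for 1.07% of the genes tested. The knockout call was kept in 2 of 12 fits without 1 library, those without WT DSS replicates 2 or 3, and the edgeR adjusted p reached 0.171 in the others. Without WT DSS replicate 2 it was 0.00110.

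Serpinh1 moved in the opposite direction to WT. It rose from 15.3, 13.9 and 13.4 CPM to 18.4, 22.3 and 26.3 CPM, by 0.65 ± 0.18 (SE) on the log2 scale (edgeR adjusted p = 0.0452), and the call was kept in 4 of 12 fits without 1 library. It was lost without WT untreated replicate 1, WT DSS replicate 3 or any knockout replicate (edgeR adjusted p up to 0.144). Of the 7 stellate cell and fibroblast markers, 5 had a log2 fold change above 0 in the knockout after DSS. Col3a1 was at 22.6 to 36.4 CPM without and 41.8 to 49.2 CPM with DSS. Dcn was at 143 to 165 CPM without and 207 to 301 CPM with it. Reln went the other way, at 150 to 177 CPM without and 115 to 137 CPM with DSS, and Pdgfrb overlapped between the groups. The summed level of these markers was 382 to 444 CPM without and 444 to 569 CPM with DSS. Their part in the Serpinh1 result was not tested. Of the plasma inhibitors, Serpind1 was at 566, 586 and 501 CPM without and 902, 710.3 and 697 CPM with DSS, a log2 fold change of 0.48 ± 0.16 (SE) (edgeR adjusted p = 0.0911). Serping1 was at 776 to 802 CPM without and 638 to 1003 CPM with DSS in the knockout.

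**Figure D3:**
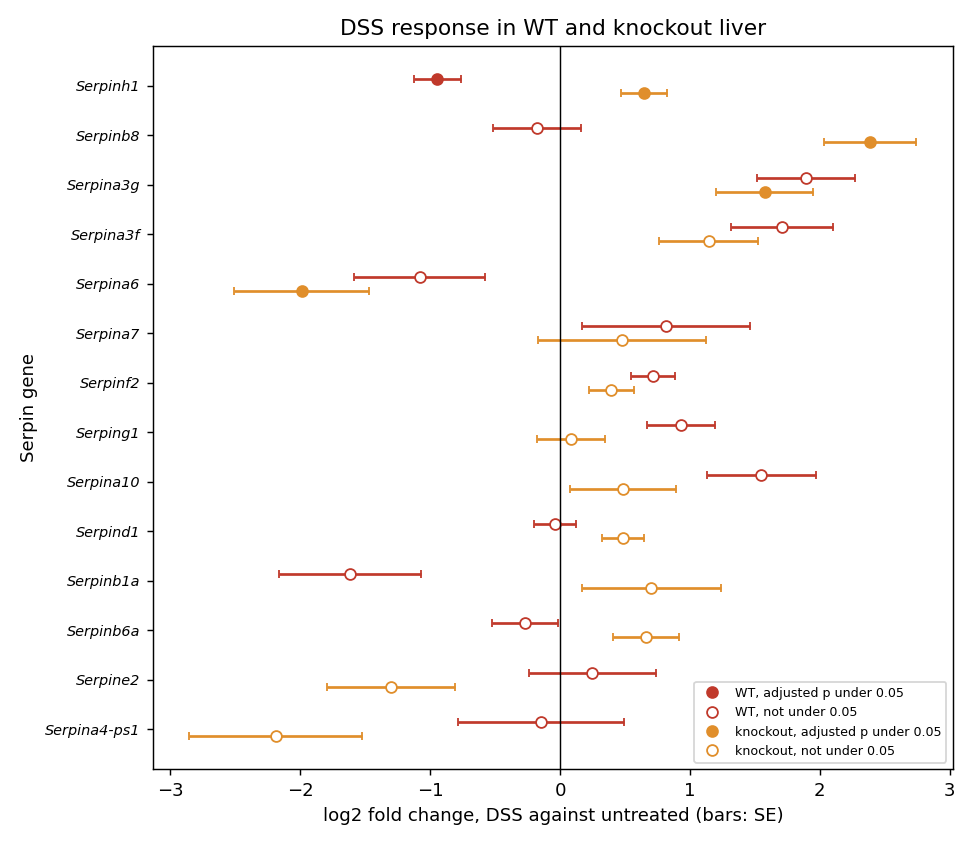
Log2 fold change of DSS against untreated liver for 14 Serpin genes in WT (red) and knockout (orange), with bars for the SE and filled points for an edgeR adjusted p under 0.05. Serpinh1 lies at -0.94 in WT and 0.65 in the knockout, while Serpina3g lies at 1.90 and 1.58.

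The difference between the genotypes in the response to DSS was tested directly. It passed for 2 of 29 Serpin genes, Serpinh1 and Serpinb8, against a background of 0.408% of genes called, and 12 Serpin genes had an unadjusted p under 0.05. DESeq2 called 4 of the 29, where 4.07% of all genes were called. For Serpinh1 the knockout response exceeded that of WT by 1.59 ± 0.25 (SE) on the log2 scale (edgeR adjusted p = 0.0177), and 9 of 12 fits without 1 library kept the call, which was lost without knockout untreated replicates 2 or 3 or knockout DSS replicate 3 (adjusted p up to 0.0760). For Serpinb8 the difference was 2.57 ± 0.49 (SE) (edgeR adjusted p = 0.0431), kept in 2 of those 12 fits, without WT untreated replicate 2 or WT DSS replicate 1, and with an adjusted p of up to 0.133 in the others. In WT liver Serpinb8 had stood at 4.03, 1.80 and 4.59 CPM without and 3.69, 2.79 and 2.74 CPM with DSS, with overlapping groups. Serpina3g gave no detectable difference in response at -0.32 ± 0.52 (SE) (edgeR adjusted p = 0.801). With sex as a covariate neither call passed, and the differences were 2.31 ± 0.36 (SE) for Serpinh1 and 1.66 ± 0.80 (SE) for Serpinb8 (edgeR adjusted p = 0.114 and 0.668).

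The untreated livers labelled knockout were then compared with untreated WT, where WT replicate 3 stood apart by its Xist level. No Serpin gene passed by edgeR, against a background of 0.0623% of genes called, while 12 had an unadjusted p under 0.05 and DESeq2 called 4 of 29, where 1.93% of all genes were called. Groups did not overlap for 11 of the 29 (background 20.2%), 4 on the higher side (background 9.56%) and 7 on the lower side (background 10.7%). The widest gap among the abundant genes was that of Serpina7, which measured 93.9, 165 and 228 CPM in WT and 18.1, 10.2 and 17.5 CPM in knockout liver. Its log2 fold change was -3.41 ± 0.71 (SE) (edgeR adjusted p = 0.137; DESeq2 adjusted p = 4.37e-05). Serpinb8 and Serpinh1 were also on the lower side, with log2 fold changes of -1.26 ± 0.35 (SE) and -0.65 ± 0.18 (SE). Serpina3g and Serpina3f stood on the higher side without overlap.

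Under DSS, 1 of 29 Serpin genes passed between the genotypes, against a background of 0.334% of genes called, and 10 had an unadjusted p under 0.05. DESeq2 called 5 of the 29, where 3.4% of all genes were called. The gene was Serpinh1, higher in the knockout by 0.94 ± 0.18 (SE) on the log2 scale (edgeR adjusted p = 0.0486), a call kept in 2 of 12 fits without 1 library, those without WT untreated replicate 3 or WT DSS replicate 1 (adjusted p up to 0.173 in the others). With sex as a covariate it was 1.501 ± 0.28 (SE) with an edgeR adjusted p of 0.225. Groups did not overlap for 7 of the 29 (background 16.8%), 5 on the higher side (background 8.8%) and 2 on the lower side (background 7.98%). Serpina7 measured 64.0, 547 and 248 CPM in WT and 29.9, 20.7 and 13.2 CPM in knockout liver, a log2 fold change of -3.75 ± 0.72 (SE) (edgeR adjusted p = 0.0700; DESeq2 adjusted p = 1.62e-06). It was -2.87 without WT DSS replicate 2. Over both treatments, in a comparison added in the same way, all 6 knockout livers lay below all 6 WT livers for Serpina7, which held for 1 of 29 Serpin genes and in this direction for 0.289% of the genes tested. Serpinf2 was the other gene on the lower side without overlap, at 749 to 927 CPM in the knockout against 1331 to 1405 CPM in WT. Its log2 fold change was -0.69 ± 0.17 (SE) (edgeR adjusted p = 0.113, DESeq2 adjusted p = 9.45e-05). Of 21 alternative fits 1 passed, and the log2 fold change lay between -0.75 and -0.34 in them. In the 12 fits without 1 library it lay between -0.75 and -0.60.

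The remaining genes were low or variable. Serpinb1a, an inhibitor of neutrophil granule proteases, stood at 8.30, 4.84 and 7.62 CPM in untreated WT and 3.70, 1.496 and 1.54 CPM in WT DSS liver, with a log2 fold change of -1.62 ± 0.55 (SE) (edgeR adjusted p = 0.195). It stood at 1.55 to 4.60 CPM in untreated and 1.94 to 7.69 CPM in treated knockout liver. Serpinb6a stood at 27.6, 16.8 and 17.3 CPM in knockout DSS liver. These values were above untreated knockout at 10.3 to 14.9 CPM and WT DSS at 8.49 to 14.9 CPM, with edgeR adjusted p of 0.135 and 0.220. Untreated WT stood at 11.3 to 18.0 CPM. Exons of Serpinb6a overlap those of Nqo2 and Ripk1, so reads may be shared. Serpine2, an inhibitor of thrombin and plasminogen activators, stood at 10.8, 10.2 and 4.67 CPM in untreated and 2.63, 3.47 and 4.25 CPM in treated knockout liver, with an edgeR adjusted p of 0.132. Serpinb6b, a near copy of Serpinb6a, stood at 2.00 to 5.92 CPM over the 12 libraries, with overlapping groups in every comparison. Serpini1, the gene of neuroserpin, stood at 0.56 to 0.74 CPM in untreated WT, 0.24 to 0.50 CPM in WT DSS, 0.36 to 0.50 CPM in untreated knockout and 0.51 to 1.61 CPM in knockout DSS liver. Its WT groups did not overlap and were lower after DSS. In the knockout the highest untreated liver was at 0.499 CPM (37 counts) and the lowest treated liver at 0.509 CPM (36 counts), so these groups nearly touched. The difference between genotypes in DSS response had an edgeR adjusted p of 0.154. Serpina12 (vaspin) stood at 8.94 to 53.7 CPM with overlapping groups throughout. Serpina3h, annotated as a processed transcript, stood at 0.09 to 0.25 CPM in untreated WT and 0.37 to 1.88 CPM in WT DSS liver. Serpina3l-ps reached 7.04 CPM in WT DSS replicate 2 and was at 0 in all untreated knockout livers.

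Serpinb1b, Serpinb2, Serpinb7, Serpinb9b and Serpinb10-ps stayed at or under 0.90 CPM in every library, where 3 counts correspond to 0.036 to 0.048 CPM, so their own fold changes are not given, although they enter the counts and medians over the 29 genes.

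The Serpina cluster on chromosome 12 showed 1 further pattern by liver. Of the 15 Serpin genes there, 6 had their highest value of all 12 libraries in knockout untreated replicate 1. These 6 were among the 8 neighbouring genes from Serpina12 to Serpina3e-ps (mm9, chr12:105266979-105431136). The ends of this stretch were set after the values were seen, at genes highest in that liver. How often that liver was highest over all genes was not examined. Serpina4-ps1, a pseudogene, was at 412.9 CPM in that liver and at most 164 CPM elsewhere. Serpina3d-ps and Serpina3e-ps had counts only in that liver, with the same value of 1.06 CPM in both. They are among the 6 and entered the Serpin genes through that liver alone, so they could be highest nowhere else. Serpina4-ps1 stood at 128 to 413 CPM in untreated and 31.0 to 72.3 CPM in treated knockout liver, with a log2 fold change of -2.19 ± 0.67 (SE) (edgeR adjusted p = 0.0796). The male-biased liver genes were also lower, with a summed level of 831 to 2051 CPM in untreated and 268 to 472 CPM in treated knockout liver, and their part in the result was not tested.

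**Figure D4:**
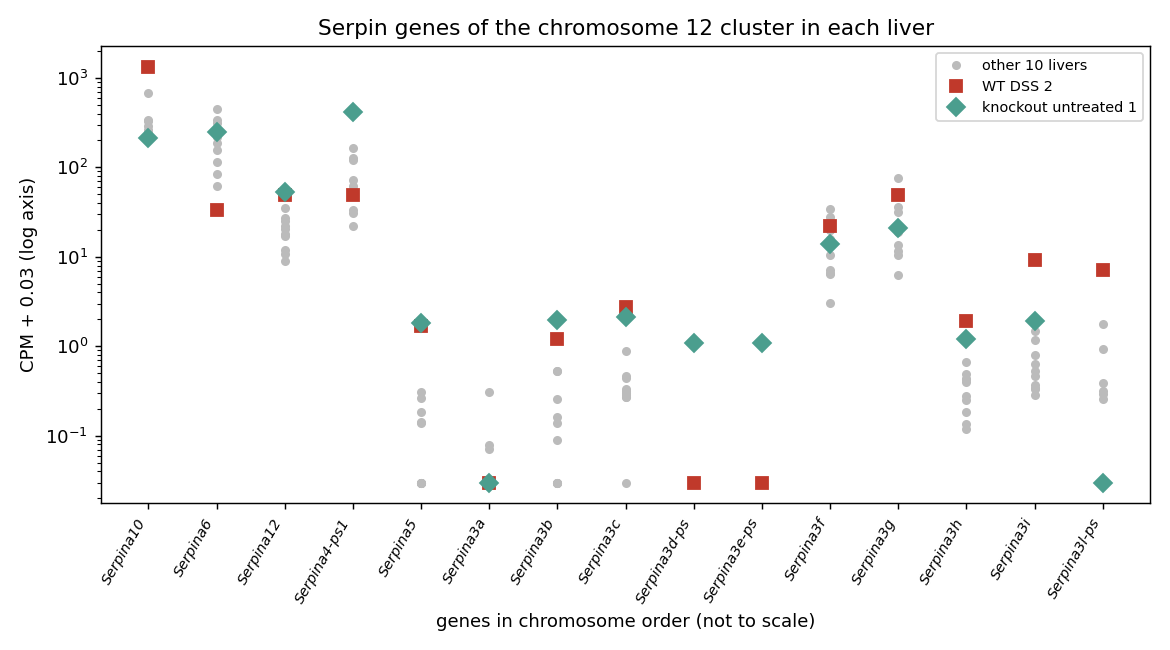
CPM + 0.03 (log axis) of the 15 Serpin genes of the chromosome 12 cluster, in chromosome order and not to scale, in each of the 12 livers. Knockout untreated replicate 1 (diamonds) is highest for 6 of the 15 genes, among them Serpina3d-ps and Serpina3e-ps, which had counts in no other liver. WT DSS replicate 2 (squares) is highest for 5 of the 15.

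The partners of the plasma serpins were set beside them. Of 15 tested proteases that these serpins inhibit, 1 passed in any of the 5 comparisons, namely F11 (clotting factor XI), which rose in the knockout after DSS by 0.93 ± 0.21 (SE) on the log2 scale, where 7.02% of all genes were called. Of 12 cofactors and clearance receptors, Vldlr fell in WT liver after DSS by 2.61 ± 0.46 (SE) on the log2 scale and Procr rose in the knockout by 1.39 ± 0.38 (SE). With sex as a covariate 0 of 17652 genes were called higher in the knockout after DSS by edgeR, so the F11 and Procr calls and those of the immune markers were lost there too, while 1957 genes had an unadjusted p under 0.05 in either direction. Vldlr is a lipoprotein receptor that also binds complexes of serpins with proteases, and it measured 21.5 to 42.8 CPM without and 2.52 to 9.15 CPM with DSS in WT liver. Of 18 tested protease inhibitors outside the serpin family, none passed by edgeR in any comparison. Their median after DSS was 0.48 on the log2 scale in WT and 0.12 in knockout liver.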

How the data were processed

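Whole-liver RNA was sequenced from 12 mice in 4 groups of 3. The authors aligned the reads to mm9 with HISAT2 after trimming with fastp, and deposited estimated counts per gene from StringTie, whole numbers that were not normalized and are not fragments. Counts were tested with the edgeR quasi-likelihood test (edgeR 4.0.16, R 4.3.3) after filterByExpr and TMM, in 1 fit of all 12 libraries by group over 17652 genes, with Benjamini-Hochberg adjusted p under 0.05 as the threshold. CPM are counts scaled to library size with TMM factors. Log2 fold changes carry SE. DESeq2 1.42.0 and limma 3.58.1, other filters and scalings, a sex covariate and fits without each library were the alternatives, and the code was tested on simulated data. The common coefficient of variation was 0.317. Whether strand was used in counting is not given in the sources used here. The p-values set each difference between groups against the spread between these livers. Named genes were those called in any comparison, those of extreme fold change, the 10 highest per kilobase and a fixed list of known roles. Values of low genes are given by level only. The Serpin genes, roles and lists were chosen with earlier results of these data known. Of the row identifiers, 28677 of 51609 matched GENCODE vM1. Promoter windows came from RefSeq (GRCm38.p6) for 24 genes, and 11 genes had no entry. Counting error for 3 counts was taken as the floor. A gene that the counts of genes include is not reported here by name or value.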

Additional observations from a re-analysis of the deposited data

Results flagged for a closer look

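A pair of Serpin genes were singled out because their response to DSS differed between WT and knockout liver in the test of that difference over all genes. For Serpinh1 the difference was 1.59 on the log2 scale, with WT livers lower after DSS in 3 of 3 and knockout livers higher in 3 of 3. For Serpinb8 the difference was 2.57 on the log2 scale, with knockout livers higher in 3 of 3 and WT groups overlapping. The knockout DSS livers had high Xist and almost no Y-linked counts, so the sex of the mice cannot be told apart from this difference.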

How the results depend on the processing

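The Serpin genes called numbered 1 (DSS in WT), 4 (DSS in knockout), 0 (genotype, untreated), 1 (genotype, DSS) and 2 (difference). In that order DESeq2 called 9, 9, 4, 5 and 4. A fit of the groups compared alone called 0, 7, 1 and 0. With sex as a covariate it was 1, 0, 0, 0 and 0. limma-voom called 0 for genotype under DSS and 1 for the difference, no filter on low counts called 2 for DSS in knockout, and at least 10 counts in every library called 2 for DSS in WT. Leaving out 1 library gave 0 to 3, 1 to 4, 0 to 1, 0 to 3 and 0 to 2. Replicate numbers did not pair the livers (same-number correlations -0.089 to 0.168), and a replicate block called 0 in WT and 0 for genotype under DSS. Over all genes, DESeq2 called 868, 2375, 341, 601 and 718 against 121, 1240, 11, 59 and 72, and the sex covariate 50, 4, 2, 5 and 4. The fit of the groups compared called 21 for DSS in WT and 60 for genotype untreated, limma-voom 210, 95 and 29 for DSS in WT and for genotype untreated and under DSS, and the block 33 and 128 for genotype untreated and the difference.

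The direction of log2 fold change turned in WT for Serpinb8 (0.075, sex covariate), Serpina4-ps1 (0.39, limma-voom) and Serpine2 (-0.13, limma-voom), and in the knockout for Serpina7 (-0.34, sex covariate). Without 1 library the WT ranges were -0.49 to 0.073 for Serpinb8, -0.073 to 1.29 for Serpina7, -0.54 to 0.93 for Serpina4-ps1, -0.11 to 0.021 for Serpind1 and -0.44 to 0.67 for Serpine2. Serping1 in the knockout ranged from -0.068 to 0.23. No other Serpin log2 fold change followed across the settings changed direction, and those of Serpinb6a and Serpinb6b were not followed. No group mean of 140 moved by 1 SD under DESeq2 size factors. The cause of these shifts was not tested.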
